A study of Mus musculus with 26 samples.

Results

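The BCL2 family decides, at the mitochondrion, whether a stressed cell survives, and 10 of its genes were followed here in murine lung cancer lines exposed to an ALK inhibitor. The genes were taken by symbol, ignoring case, from the 55391 gene rows of the count table: the BH3-only genes Bcl2l11, Bmf, Bbc3, Pmaip1 and Bid, the effectors Bax and Bak1, and the anti-apoptotic genes Bcl2, Bcl2l1 and Mcl1. All 10 were found and all 10 passed the filter on low counts, which left 14264 genes for testing. The lines EA1, EA2 and EA3 were isolated from C57BL/6 mice and carry the EML4-ALK fusion, a constitutively active tyrosine kinase. Each line was cultured with 0.1% DMSO, the solvent control, or with 100 nM alectinib, an inhibitor of the ALK kinase. Cells were collected on days 1, 2, 3 and 5, which gave 24 libraries, 4 for each combination of line and treatment, and the days served as replicates. Nothing in the labels says that the days were separate cultures, so that p-values measure only the spread between these libraries. A further 2 libraries labelled EA3 day 7 stood apart from that line and were left out of the values below.

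In this family, anti-apoptotic proteins hold the effectors BAX and BAK in check, and BH3-only proteins relieve that restraint or engage the effectors directly. Once BAX or BAK permeabilises the outer mitochondrial membrane, cytochrome c is released and caspases are activated. In tumors that depend on a kinase, loss of ERK signaling is known to raise BIM, the product of Bcl2l11, and BMF. Bbc3 encodes PUMA and Pmaip1 encodes NOXA, which are known for their induction by cellular stress.

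Promoter sequences are shown for the genes that moved in all 3 lines, Bmf and Bcl2l1, and for Bcl2l11, so that their values can be read beside the DNA in front of them. They are those of RefSeq on GRCm38.p6, the build that mm10 names, where 16 start sites were matched to 9 of the genes. Capitals mark matches, on either strand, to 5 motifs that were chosen after the values had been seen: GTAAACA (FOXO), CACGTG (E-box), TGACTCA (AP-1), CCGGAAGT (ETS) and TGACGTCA (CRE), none of which contains another. The 250 bases before the first start site of Bcl2l11 lie at chr2:128125788-128126037 on the plus strand. Those before the start site of Bmf farthest upstream lie at chr2:118549687-118549936 on the minus strand. Those before the start site of Bcl2l1 farthest upstream lie at chr2:152831729-152831978 on the minus strand, and a stretch of 27 bases just inside that transcript lies at chr2:152831679-152831705.
Bcl2l11: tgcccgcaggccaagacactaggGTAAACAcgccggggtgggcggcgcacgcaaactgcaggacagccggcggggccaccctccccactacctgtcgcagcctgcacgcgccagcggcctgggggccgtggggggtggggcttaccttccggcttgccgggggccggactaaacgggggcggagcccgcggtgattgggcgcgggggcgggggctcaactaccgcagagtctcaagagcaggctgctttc
Bmf: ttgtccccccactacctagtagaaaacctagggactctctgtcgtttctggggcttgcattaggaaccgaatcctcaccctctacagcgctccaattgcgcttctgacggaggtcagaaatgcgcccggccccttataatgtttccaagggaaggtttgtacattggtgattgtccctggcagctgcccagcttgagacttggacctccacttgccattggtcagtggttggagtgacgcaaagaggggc
Bcl2l1: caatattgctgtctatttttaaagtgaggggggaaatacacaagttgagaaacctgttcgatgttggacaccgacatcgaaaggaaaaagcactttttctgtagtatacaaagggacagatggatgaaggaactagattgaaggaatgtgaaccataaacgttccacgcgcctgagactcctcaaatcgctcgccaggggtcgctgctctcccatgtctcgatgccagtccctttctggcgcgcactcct
Bcl2l1 ETS match: ctgccgcggcaCCGGAAGTggctgcgc
The FOXO motif of Bcl2l11 began 227 bases before its start. This motif was in the window of 300 bases around 2 of the 16 start sites, the other being 1 of Bbc3, against 3.65% of 32851 RefSeq promoters. The ETS motif of Bcl2l1 began 34 bases after the start and was in 1 of the 16 windows, against 3.89% of promoters. No letters of these motifs were found at the 3 start sites of Bmf. The E-box was in 2 windows, of Bax and Bbc3, against 7.15% of promoters, whereas AP-1 (5.2%) and CRE (1.79%) were in none. A match is a run of letters and not a measured binding site.

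Library totals ran from 5780062 to 11732401 counts in the 24 libraries. The alectinib label was checked with Dusp6 and Etv4, which are switched on by ERK signaling, and both fell in all 3 lines, Etv4 by 4.08 (SE 0.36), 6.59 (SE 0.42) and 4.03 (SE 0.36) on the log2 scale in EA1, EA2 and EA3. Of 9 lung epithelium markers, Nkx2-1 and Sftpc were at or near 0 in every group and 5 or 6 exceeded 3 counts in some library, keratins among them. Their sum went from 4633–9253 CPM with DMSO to 3246–5367 CPM with alectinib in EA1 and from 4633–6680 to 2951–6655 CPM in EA3, which overlapped, and from 1811–2695 to 567–1169 CPM in EA2, which did not. Of the 5 tested, 1 rose and 1 fell in EA1 and in EA3, and 1 rose and 2 fell in EA2, the line in which Bid and Bcl2 differ from the other lines below. Epcam averaged 132 CPM in EA3 with DMSO but 1.35 in EA1 and 0.494 in EA2. The summed level of 7 fibroblast markers rose with alectinib, from 9.08–44.1 to 126–478 CPM in EA1, from 58.4–71.5 to 122–239.8 in EA2 and from 10.2–20.2 to 84.7–274 in EA3, and 5, 3 and 5 of the 6 tested members passed the test. In EA1 with DMSO, Lum and Col1a2 were at 0. Of 6 leukocyte markers, at most 2 exceeded 3 counts, and their sum was between 1.46 and 93.6 CPM, most of it Cd68. The 4 endothelial markers summed to at most 9.39 CPM. The part of these shifts in the results below was not tested, and in bulk RNA a change in the cells present and a change in RNA per cell cannot be told apart.

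With alectinib, 5 of the 10 genes changed in EA1, 4 in EA2 and 4 in EA3 at an adjusted p-value (edgeR's quasi-likelihood test, Benjamini-Hochberg over 14264 genes) of 0.05. In EA1, 4 rose (Bcl2l11, Bmf, Bid and Bak1) and 1 fell (Bcl2l1), while 19.0% of all genes tested rose and 14.6% fell. In EA2, 1 rose (Bmf) and 3 fell (Bid, Bcl2 and Bcl2l1), while 13.0% of all genes rose and 11.3% fell. In EA3, 3 rose (Bmf, Bid and Mcl1) and 1 fell (Bcl2l1), while 17.5% of all genes rose and 15.1% fell. Bmf was higher and Bcl2l1 lower with alectinib on each of the 4 days in each of the 3 lines, while Bcl2l11, Bid, Bak1, Bcl2 and Mcl1 were called in some lines and Bbc3, Pmaip1 and Bax in none. The 10 genes had median log2 fold changes of -0.16 (EA1), -0.14 (EA2) and 0.21 (EA3), beside 0.06, 0 and 0.07 over all genes tested. The levels below are in CPM, that is, counts relative to the library total after scaling with TMM factors, which correct for differences in RNA composition.

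**Figure D1:**
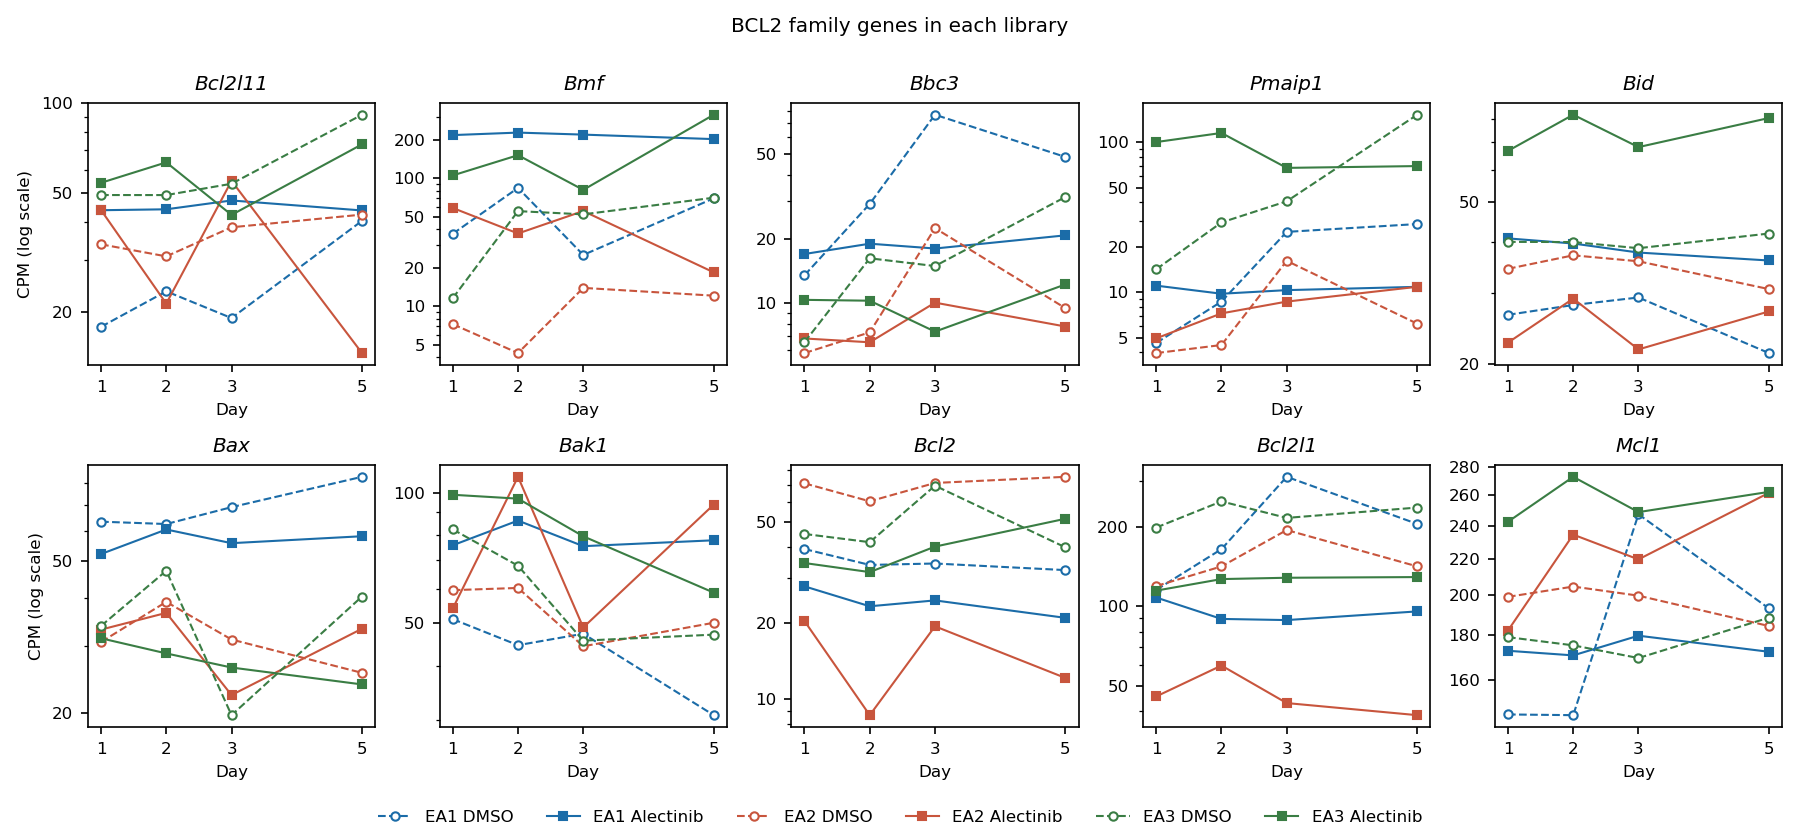
CPM of each BCL2 family gene in each of the 24 libraries (y axis, log scale, a different range per gene) against the day of culture (x axis); open circles with broken lines are DMSO and filled squares with solid lines are alectinib, colored by line, with 1 library per point. Bmf with alectinib lies above Bmf with DMSO of the same line on all 4 days, and Bcl2l1 lies below it.

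Bmf encodes a BH3-only protein that binds and neutralises anti-apoptotic family members. It lies at chr2:118528757-118549687 on the minus strand. In EA1, Bmf was at 36.9, 84.3, 25.2 and 69.9 CPM with DMSO on days 1, 2, 3 and 5, and at 218, 228, 220.2 and 203 CPM with alectinib. In EA2, the DMSO values were 7.25, 4.31, 13.9 and 12.1 CPM and the alectinib values 58.8, 37.1, 55.6 and 18.4 CPM. In EA3, they were 11.6, 55.5, 52.4 and 70.7 CPM with DMSO and 106, 152, 81.4 and 315 CPM with alectinib. The groups did not overlap in any line, and EA1 with alectinib was nearly level over the days whereas EA2 was lowest on day 5 and EA3 highest on day 5. The log2 fold change was 2.16 (SE 0.45) in EA1, 2.15 (SE 0.47) in EA2 and 1.84 (SE 0.45) in EA3, with edgeR adjusted p = 0.00286, 0.0051 and 0.00761. Separately from the fit, the mean CPM with alectinib was 4.02, 4.52 and 3.44 times that with DMSO. The effect did not pass the test of a difference between lines (edgeR adjusted p = 0.91), and the interval of the difference was -1.41 to 1.40 between EA2 and EA1 and -1.68 to 1.05 between EA3 and EA1 (95%, log2). Over the 12 alternative settings, the adjusted p stayed between 1.86e-21 and 0.0401 in the 3 lines. No FOXO, E-box, AP-1, ETS or CRE letters were in its promoter windows.

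Bcl2l11, which encodes BIM, a BH3-only protein that binds all the main anti-apoptotic members, lies at chr2:128126038-128162547 on the plus strand. In EA1 it was at 17.9, 23.5, 19.1 and 40.5 CPM with DMSO and at 43.9, 44.2, 47.3 and 43.8 CPM with alectinib. All alectinib libraries were above all DMSO libraries, but by day 5 the DMSO value had nearly met them. The log2 fold change was 0.91 (SE 0.29, edgeR adjusted p = 0.0301). This call was lost without day 1 (adjusted p = 0.149), without day 2 (0.117), without day 3 (0.148), without the block of line and day (0.0537) and with all 26 libraries (0.0886). In EA2 the gene was at 33.8, 30.8, 38.5 and 42.4 CPM with DMSO and at 43.95, 21.4, 55.0 and 14.6 CPM with alectinib, which was above DMSO on days 1 and 3 and below it on days 2 and 5. In EA3 it was at 49.3, 49.3, 53.8 and 91.6 CPM with DMSO and at 54.2, 63.5, 42.3 and 72.9 CPM with alectinib. The groups overlapped in both lines, with a log2 fold change of -0.27 (SE 0.30) in EA2 and -0.04 (SE 0.29) in EA3. The difference between lines did not pass the test (edgeR adjusted p = 0.16), with an interval of -2.07 to -0.27 for EA2 against EA1 (log2, 95%, not adjusted).

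Bid, whose protein is cut by caspase-8 and so joins the death receptor route to the mitochondrial one, went in opposite directions in different lines. It lies at chr6:120891930-120916853 on the minus strand. In EA1 it was at 26.5, 27.96, 29.2 and 21.3 CPM with DMSO and at 40.7, 39.6, 37.6 and 35.9 CPM with alectinib. In EA3 it was at 39.9, 39.9, 38.5 and 41.9 CPM with DMSO and at 66.7, 81.8, 68.1 and 80.3 CPM with alectinib. Both lines were higher with alectinib on all 4 days with no overlap. In EA2, by contrast, it was at 34.3, 37.0, 35.8 and 30.6 CPM with DMSO and at 22.6, 29.0, 21.8 and 27.0 CPM with alectinib, lower on all 4 days and again with no overlap. The log2 fold change was 0.56 (SE 0.13, edgeR adjusted p = 0.00507) in EA1, -0.46 (SE 0.13, adjusted p = 0.0186) in EA2 and 0.88 (SE 0.13, adjusted p = 0.000258) in EA3. The effect differed between the lines (edgeR adjusted p = 0.00204), with EA2 below EA1 by an interval of -1.42 to -0.63 and EA3 above EA2 by 0.96 to 1.74 (log2, 95%), while EA3 and EA1 did not pass (adjusted p = 0.427). The EA1 call was lost without day 1 (adjusted p = 0.0607), without day 2 (0.0566), without the filter on low counts (0.115) and with the line fitted alone (0.0543), and the EA2 call without day 1 (0.102), day 2 (0.0753) or day 3 (0.114), without the filter (0.217) and with all 26 libraries (0.0531), whereas the difference between lines passed in all 11 alternatives (adjusted p at most 0.0337). Exons of Bid share 17.69% of their bases with Bcl2l13 on the opposite strand, and whether counting used the strand is not given in the sources used here.

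Bbc3 and Pmaip1, the BH3-only genes known for induction by stress, did not pass the test in any line. Bbc3 (chr7:16308393-16318205, plus strand) was at 13.5, 29.2, 76.5 and 48.5 CPM with DMSO in EA1 and at 17.0, 19.0, 18.0 and 20.8 CPM with alectinib. In EA2, Bbc3 was at 5.82, 7.28, 22.5 and 9.45 CPM with DMSO and at 6.81, 6.54, 10.0 and 7.75 CPM with alectinib. In EA3, Bbc3 was at 6.55, 16.2, 14.9 and 31.5 CPM with DMSO and at 10.3, 10.3, 7.34 and 12.2 CPM with alectinib. In all 3 lines, the alectinib value was above DMSO on day 1 and below it on the later days, with DMSO spread more widely than alectinib. Bbc3 had a log2 fold change of -0.91 (SE 0.37, edgeR adjusted p = 0.0743) in EA1, -0.36 (SE 0.38, 0.531) in EA2 and -0.62 (SE 0.38, 0.233) in EA3. Without day 1, Bbc3 passed in EA1 (-1.37, adjusted p = 0.0069) and in EA3 (-1.03, 0.0273), and in EA1 it also passed with DESeq2 (0.0442) and without the filter (0.00181).

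Pmaip1 (chr18:66458533-66465565, plus strand) encodes NOXA, which binds MCL1 and directs it to degradation. In EA3, where its level was highest, it was at 14.3, 29.3, 40.5 and 153 CPM with DMSO on days 1, 2, 3 and 5 and at 101, 116, 67.7 and 69.6 CPM with alectinib. The log2 ratio was 2.82 on day 1, 1.98 on day 2, 0.74 on day 3 and -1.14 on day 5. The DMSO level thus climbed past the alectinib level, and the mean effect of 1.13 (SE 0.59) did not pass (edgeR adjusted p = 0.165). It passed without day 5 (1.85, adjusted p = 0.0225) and without the filter (1.09, 0.000144). In EA1, Pmaip1 was at 4.60, 8.69, 25.3 and 28.6 CPM with DMSO and at 11.1, 9.80, 10.4 and 10.9 CPM with alectinib, with the ratio above 0 on days 1 and 2 and below 0 on days 3 and 5. In EA2 it was at 3.94, 4.46, 16.2 and 6.19 CPM with DMSO and at 4.94, 7.25, 8.69 and 10.9 CPM with alectinib. Pmaip1 had a log2 fold change of -0.38 (SE 0.59) in EA1 and 0.20 (SE 0.60) in EA2, both short of the test.

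**Figure D2:**
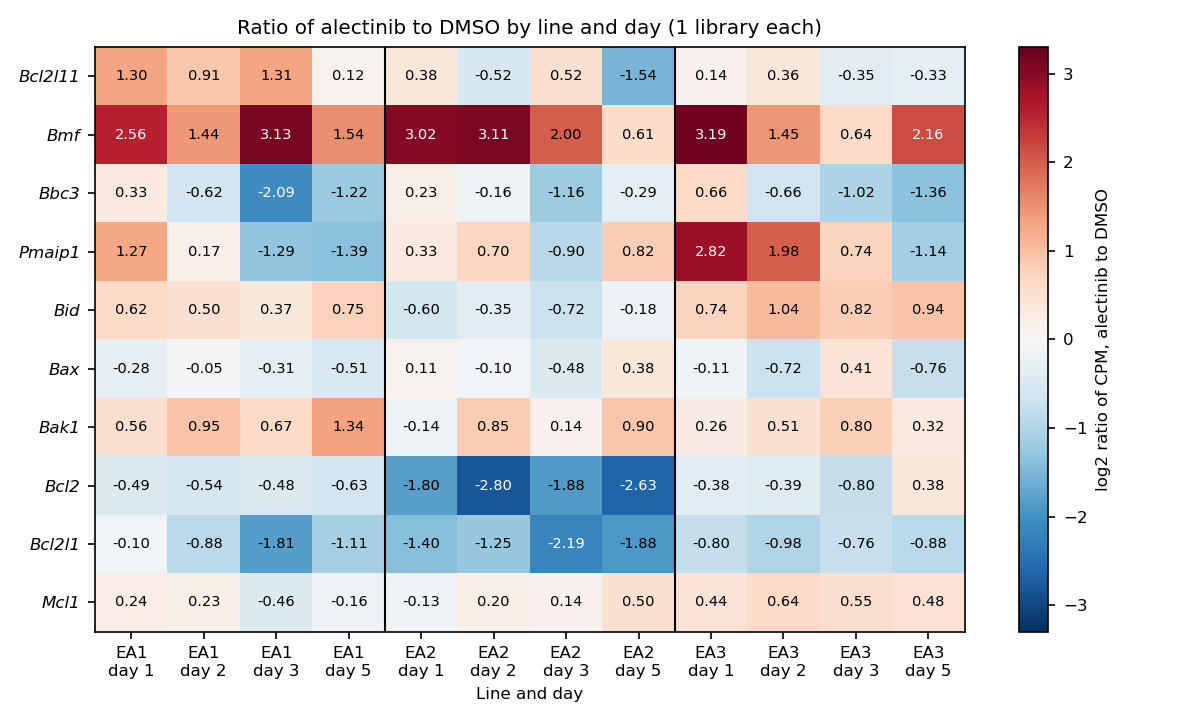
Log2 ratio of CPM with alectinib to CPM with DMSO for each gene (rows), by line and day (columns, 1 library of each treatment per cell); red is higher and blue lower with alectinib. The row of Bmf is above 0 and that of Bcl2l1 below 0 in all 12 columns, and Pmaip1 in EA3 runs from 2.82 on day 1 to -1.14 on day 5.

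Of the effectors, which form the pores of the outer mitochondrial membrane, Bak1 rose in EA1 and Bax passed in no line. Bak1 (chr17:27019810-27029009, minus strand) was at 51.1, 44.6, 47.3 and 30.8 CPM with DMSO in EA1 and at 75.6, 86.2, 75.3 and 77.7 CPM with alectinib. In EA2, Bak1 was at 59.6, 60.3, 44.3 and 50.2 CPM with DMSO and at 54.1, 109, 49.0 and 93.8 CPM with alectinib. In EA3, Bak1 was at 82.3, 67.9, 45.7 and 47.1 CPM with DMSO and at 98.8, 96.8, 79.3 and 58.9 CPM with alectinib. The groups were apart in EA1 and overlapped in EA2, whereas in EA3 alectinib was higher on all 4 days within groups that overlapped. The log2 fold change was 0.88 (SE 0.19, edgeR adjusted p = 0.00326) in EA1, 0.44 (SE 0.19, 0.108) in EA2 and 0.47 (SE 0.19, 0.067) in EA3, and the effect was not shown to differ between lines (adjusted p = 0.423). With library size alone, Bak1 in EA3 passed (0.59, adjusted p = 0.0308), as it did with all 26 libraries (0.51, 0.034). Exons of Bak1 share 25.51% of their bases with Ggnbp1 on the opposite strand.

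Bax (chr7:45461697-45466898, minus strand) was at 63.3, 62.4, 69.0 and 82.9 CPM with DMSO in EA1 and at 52.1, 60.4, 55.6 and 58.0 CPM with alectinib. These groups did not overlap, yet the log2 fold change of -0.29 (SE 0.19) did not pass (edgeR adjusted p = 0.252). In EA2, Bax was at 30.7, 39.1, 31.2 and 25.5 CPM with DMSO and at 33.1, 36.6, 22.3 and 33.3 CPM with alectinib. In EA3, Bax was at 33.8, 47.1, 19.8 and 40.4 CPM with DMSO and at 31.4, 28.7, 26.3 and 23.8 CPM with alectinib. The log2 fold change was -0.02 (SE 0.19) in EA2 and -0.30 (SE 0.19) in EA3, and the EA3 value passed without day 3 (-0.55, adjusted p = 0.0422). Exons of Bax share 12.18% of their bases with Gm45808 on the same strand.

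Among the anti-apoptotic genes, Bcl2l1 fell in all 3 lines. It encodes BCL-XL and, by splicing, a short form that promotes death, which gene counts do not separate, and it lies at chr2:152780668-152831728 on the minus strand. In EA1 it was at 116, 165, 312 and 206 CPM with DMSO and at 108, 89.7, 88.8 and 95.8 CPM with alectinib. In EA2, Bcl2l1 was at 119.6, 142, 195 and 142 CPM with DMSO and at 45.4, 59.6, 42.9 and 38.5 CPM with alectinib. In EA3, Bcl2l1 was at 199.8, 251, 217 and 238 CPM with DMSO and at 115, 127, 129 and 129 CPM with alectinib. No groups overlapped, and only on day 1 in EA1 were both treatments close, with a log2 ratio of -0.10. Bcl2l1 had a log2 fold change of -0.98 (SE 0.22, edgeR adjusted p = 0.00477) in EA1, -1.68 (SE 0.22, 0.00014) in EA2 and -0.85 (SE 0.22, 0.00903) in EA3. Separately from the fit, the mean CPM with DMSO was 2.09, 3.22 and 1.81 times that with alectinib. The fall in EA2 was not shown to differ from the others (adjusted p between lines = 0.177), with a difference of 0.83 (SE 0.31) between EA3 and EA2. The EA3 call was lost without day 5 (adjusted p = 0.0554).

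Bcl2, which encodes the founding member of the family, fell in EA2, and the difference between lines was itself past the test. The gene lies at chr1:106538178-106714274 on the minus strand. In EA2 it was at 71.0, 60.3, 71.3 and 75.4 CPM with DMSO and at 20.3, 8.66, 19.4 and 12.1 CPM with alectinib, far apart on every day. In EA1 it was at 39.1, 33.9, 34.3 and 32.3 CPM with DMSO and at 27.9, 23.3, 24.5 and 20.9 CPM with alectinib, which did not overlap either. In EA3 it was at 44.9, 41.6, 69.5 and 39.7 CPM with DMSO and at 34.5, 31.7, 40.0 and 51.5 CPM with alectinib, higher with alectinib on day 5 alone. Bcl2 had a log2 fold change of -2.26 (SE 0.21, edgeR adjusted p = 1.1e-05) in EA2, against -0.53 (SE 0.20, 0.0501) in EA1 and -0.30 (SE 0.20, 0.257) in EA3. The effect differed between lines (adjusted p = 0.00217), by -2.34 to -1.11 for EA2 against EA1 and by 1.34 to 2.57 for EA3 against EA2 (log2, 95%), and this passed in all 11 alternatives (at most 0.036). The EA1 value just missed the threshold and was called with DESeq2 (0.032), with its size factors in edgeR (0.0455), without the filter (0.0436) and with the line fitted alone (0.0251). Exons of Bcl2 share 6.09% of their bases with D630008O14Rik on the opposite strand.

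Mcl1, whose protein is short-lived and holds BAK and BIM, rose in EA3. It lies at chr3:95658788-95663176 on the plus strand. In EA3 it was at 179, 175, 169.5 and 188 CPM with DMSO and at 242, 273, 249 and 262 CPM with alectinib, with no overlap. In EA1 it was at 146, 146, 247 and 193 CPM with DMSO and at 173, 171, 179.8 and 172 CPM with alectinib. In EA2 it was at 199, 205, 199.7 and 184 CPM with DMSO and at 182, 234, 219.6 and 262 CPM with alectinib. The groups overlapped in those lines. Mcl1 had a log2 fold change of 0.53 (SE 0.14, edgeR adjusted p = 0.0114) in EA3, -0.04 (SE 0.14) in EA1 and 0.18 (SE 0.14) in EA2, and the effect was not shown to differ between lines (adjusted p = 0.175). The EA3 call was lost without day 2 (adjusted p = 0.103), without the filter (0.0692) and with the line fitted alone (0.0576).

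**Figure D3:**
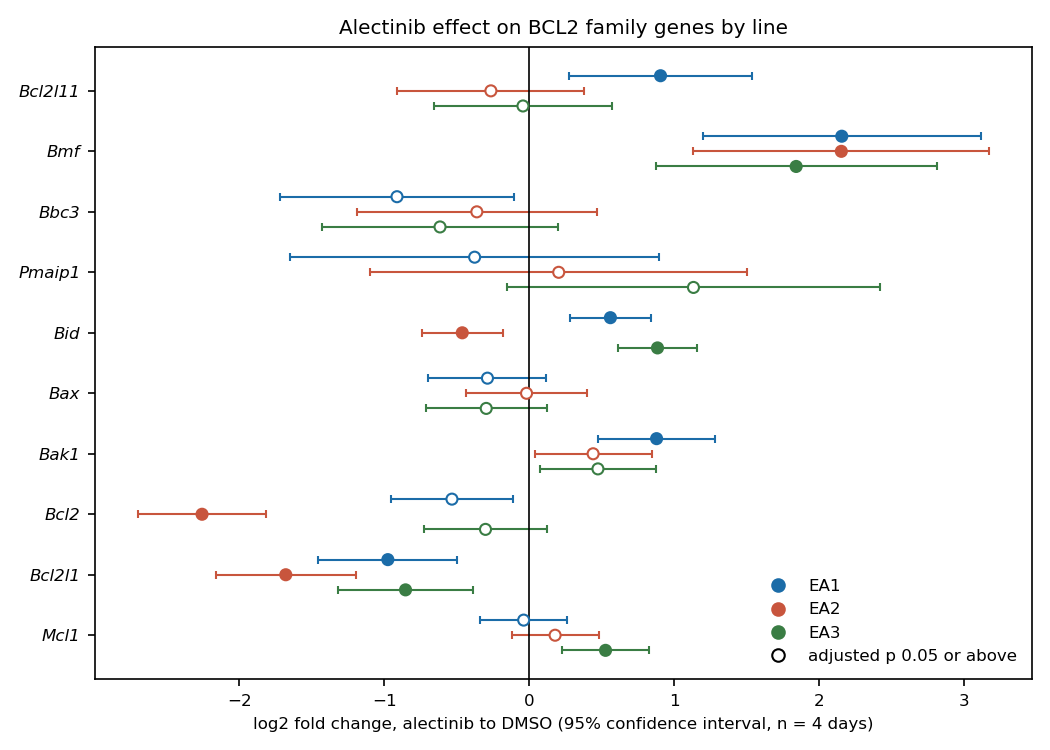
Log2 fold change of alectinib against DMSO (x axis) for each gene (y axis) and line (color), with 95% confidence intervals from edgeR's fit, n = 4 days; filled points passed an adjusted p of 0.05. The intervals of Bmf lie above 0 and those of Bcl2l1 below 0 in all 3 lines, while Bid and Bcl2 in EA2 stand apart from the other lines.

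The test between lines called 2 of the 10 genes, Bid and Bcl2, beside 6.84% of all genes tested. In both genes EA2 was the line that differed from EA1 and from EA3, and the comparison of EA3 with EA1 passed in neither. For the other 8 genes the adjusted p between lines was 0.16 or above.

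In DMSO, where the day was a term of the fit over 12 libraries, 8 of the 10 genes differed between lines, beside 54.9% of all genes tested. Those that did not pass were Mcl1 (edgeR adjusted p = 0.812) and Bak1 (0.129). Bbc3 and Bax were highest in EA1. Bbc3 was lower by 1.85 (SE 0.32, log2) in EA2 and by 1.17 (SE 0.32) in EA3, and Bax by 1.19 (SE 0.23) and 1.04 (SE 0.23). These log2 differences had edgeR adjusted p = 0.000649 and 0.0137 for Bbc3 and 0.00121 and 0.00389 for Bax. Pmaip1 was instead highest in EA3, above EA1 by 1.70 (SE 0.40, adjusted p = 0.00673) and above EA2 by 2.66 (SE 0.43, adjusted p = 0.000524). Each line is 1 isolate, so that the cause of a difference between lines was not tested.

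Bmf had its lowest DMSO level in EA2, below EA1 by 2.49 (SE 0.47, edgeR adjusted p = 0.00131) and below EA3 by an interval of 1.16 to 3.16 (log2, 95%), while EA1 and EA3 were not shown to differ (adjusted p = 0.601). Bcl2l11 rose in the order EA1, EA2, EA3, with all pairs past the test and EA3 above EA1 by 1.27 (SE 0.18). Bcl2 was highest in EA2, by 0.95 (SE 0.18) over EA1 (adjusted p = 0.00112) and past EA3 (adjusted p = 0.0404), and EA3 and EA1 did not pass (0.077). EA2 was thus the line with the highest Bcl2 level with DMSO and the lowest with alectinib. Bid was higher in EA3 than in EA1 by 0.60 (SE 0.16, adjusted p = 0.0133) and Bcl2l1 was higher in EA3 than in EA2 by 0.66 (SE 0.20, 0.0204), the other pairs of both not passing. The test over the lines was lost for Bid without day 1 (adjusted p = 0.0934), day 2 (0.0928) or day 5 (0.14) and without the filter (0.101), and for Bcl2l1 without day 1 (0.0893), day 2 (0.185) or day 5 (0.139), with library size alone (0.0787) and without the day term (0.172), while Bak1 passed without day 3 (0.0287).

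Levels of different genes were compared per kilobase of exon, using the exon union of GENCODE M21, since the annotation the authors counted on is not given in the sources used here. Mcl1 had the highest level in all 6 groups, from 50.9 CPM per kb in EA1 with alectinib to 75.0 in EA3 with alectinib. With DMSO, Bcl2l1 followed at 43.6 (EA1), 32.7 (EA2) and 49.4 (EA3) CPM per kb, although in EA1 it was level with Bax at 44.03. Bcl2l11 was the lowest in EA1 (3.14 CPM per kb), Bmf in EA2 (1.79) and Bcl2 in EA3 (5.34). With alectinib, Bmf reached 41.4 CPM per kb in EA1 and was second to Mcl1 there, compared with a place of 6 among the 10 with DMSO (10.3 CPM per kb). Bcl2 had the lowest level of the 10 with alectinib in every line, at 2.64, 1.65 and 4.31 CPM per kb in EA1, EA2 and EA3. Neighbours in these orders often overlapped over the days. Mcl1 overlapped with Bcl2l1 in EA1 and EA3 with DMSO, and in EA3 with DMSO also with Pmaip1, which ran from 5.22 to 56.0 CPM per kb. Mcl1 stood clear of the other 9 genes in EA2 with DMSO and in all 3 lines with alectinib. In EA1 with DMSO, Bax also overlapped with Mcl1 and Bcl2l1, and Bmf, Bid and Pmaip1 overlapped with each other. Bak1 and Bax overlapped in EA2 and EA3 with DMSO, as did Bcl2 and its neighbour above it in EA2 and EA3 with alectinib.

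**Figure D4:**
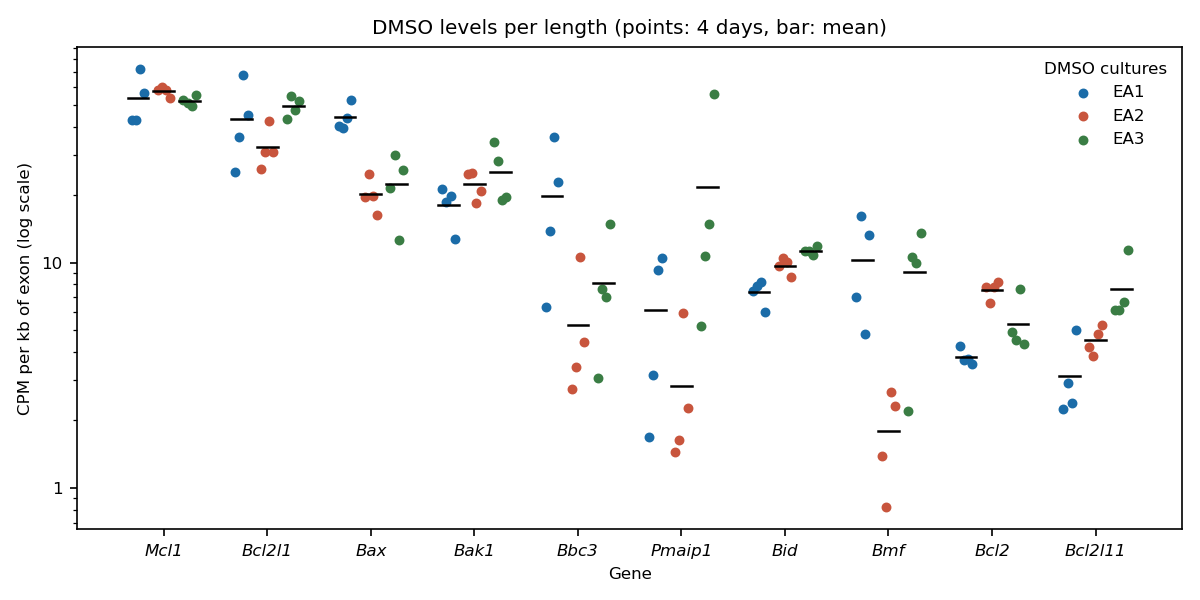
CPM per kilobase of exon with DMSO (y axis, log scale) for each gene (x axis, ordered by mean level), with 1 point per day and a bar at the mean of the 4 days, colored by line. Mcl1 has means of 53.6, 57.6 and 52.1 in EA1, EA2 and EA3, while the mean of Bmf is lowest in EA2 (1.79) and that of Pmaip1 highest in EA3 (21.7), with single days that overlap another line.

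A trend of the drug response over the days, fitted as a slope on log2 day, was called for 0 of the 10 genes in each line by edgeR, beside 0.0210% of all genes tested in EA1, 0 in EA2 and 0.0491% in EA3. At an unadjusted p under 0.05 the counts were 3, 1 and 2 of the 10, beside 1646, 860 and 1876 of all 14264 genes. DESeq2 called 1, 0 and 1, in both cases Pmaip1, beside 246, 60 and 349 of all genes. Its slope was -1.70 (SE 0.32, edgeR adjusted p = 0.0868) per doubling in EA3 and -1.23 (SE 0.34, 0.242) in EA1, and the EA3 slope passed without day 3 (0.0323). Bbc3 had slopes of -0.81 (SE 0.30, 0.347) in EA1 and -0.87 (SE 0.31, 0.267) in EA3. With DMSO alone, the level of 1 gene changed with the days in EA3, where 5.24% of all genes did, and of 0 genes in EA1 (1.64% of all genes) and EA2 (0). That gene was Pmaip1, which rose by 1.44 per doubling (SE 0.31, edgeR adjusted p = 0.0242), a call that was lost without day 1 (adjusted p = 1), day 2 (0.0971) or day 5 (0.357) and with time counted per day (0.0509). At an unadjusted p under 0.05, 3, 0 and 5 of the 10 genes had a DMSO slope in EA1, EA2 and EA3, beside 2270, 282 and 3116 of all 14264 genes. DESeq2 called 1 in EA1, Pmaip1 (0.0102), and 2 in EA3, Pmaip1 and Bmf (0.0273 for Bmf), beside 752 and 1609 of all genes.

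Fas showed the largest rises among 7 death receptor genes, of which 1 rose in EA1, 1 rose and 1 fell in EA2, and 2 rose and 3 fell in EA3, while 33.6%, 24.4% and 32.6% of all genes tested were called in either direction in EA1, EA2 and EA3. Fas encodes the death receptor CD95 and passed in all 3 lines (edgeR adjusted p = 4.36e-05, 0.000123 and 0.000396), from means of 1.24, 0.166 and 0.897 CPM to 18.2, 3.45 and 7.41 CPM in EA1, EA2 and EA3. Its fitted log2 fold change was 3.89 (SE 0.45) in EA1 and 3.03 (SE 0.47) in EA3, where DMSO libraries held 3 to 17 and 1 to 14 counts, and no size is given for EA2, where they held 1 or 2 counts. Casp8, which cuts BID, fell in EA3 (-0.65, SE 0.18, edgeR adjusted p = 0.0127) and differed in its effect between lines (0.0362), with values of 0.43 in EA1 and -0.43 in EA2. Cflar, an inhibitor of caspase-8, fell in EA2 (-1.05, SE 0.22), Tnfrsf10b and Tnfrsf1a fell in EA3 (-0.64 and -0.54), and Ripk1 rose there (0.37). The median over the list was 0.17, -0.21 and -0.42 in EA1, EA2 and EA3.

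Downstream of the mitochondrion, Casp6, an executioner caspase gene, rose in EA1 (0.69, SE 0.19, edgeR adjusted p = 0.0141). Htra2, which encodes a mitochondrial protease released in apoptosis, fell in EA1 (-0.91, SE 0.20, 0.00349) and EA3 (-0.83, SE 0.19, 0.00544). The inhibitor of apoptosis gene Birc2 rose in EA2 (0.67, SE 0.17) and EA3 (0.55, SE 0.17). Birc3, another of this kind, was at 9.85, 9.66, 11.3 and 11.77 CPM with DMSO in EA2 and at 21.8, 20.5, 21.2 and 18.8 CPM with alectinib, with no overlap, and rose in EA2 (0.95, SE 0.32, adjusted p = 0.045) and EA3 (1.90, SE 0.33, 0.000908). Apaf1, Cycs, Casp9, Diablo, Aifm1, Endog, Xiap and Birc5 passed in no line.

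Of 15 further BCL2 family genes in the table, 10 passed the filter, and 0 of these were called in EA1 and EA2 by edgeR's quasi-likelihood test (1 and 2 at an unadjusted p under 0.05, and 0 and 0 by DESeq2). In EA3, 1 rose and 4 fell, where 17.5% of all genes tested rose and 15.1% fell, against 33.6% and 24.4% called in either direction in EA1 and EA2. The medians were 0.08, -0.37 and -0.32 in EA1, EA2 and EA3. The riser was Bik, a BH3-only gene of the endoplasmic reticulum, at 0.538, 0.117, 0.528 and 0.989 CPM with DMSO and 1.85, 4.36, 3.20 and 5.95 CPM with alectinib (2.79, SE 0.64, edgeR adjusted p = 0.00679), from 1 to 6 counts per library with DMSO. Those that fell were Bok, an effector-like member (-1.80, SE 0.31, adjusted p = 0.00085), the anti-apoptotic gene Bcl2l2 (-0.77, SE 0.25, 0.0308), Bcl2l15 (-2.06, SE 0.64, 0.0347) and the mitophagy receptor gene Bnip3 (-1.42, SE 0.43, 0.0222). All were lower on every day, but only the groups of Bok did not overlap. Bnip3 ran from 22.7 to 202 CPM with DMSO and from 16.0 to 65.9 CPM with alectinib over the days. The effect on Bok differed between lines (adjusted p = 0.023), with values of 0.38 in EA1 and -0.68 in EA2. The A1 genes Bcl2a1a, Bcl2a1b and Bcl2a1d and Bcl2l10 were at or near 0 in all groups.

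Foxo1, a transcription factor that FOXO motifs are named for, rose in EA1 (0.49, SE 0.17, edgeR adjusted p = 0.0396) and EA2 (0.94, SE 0.17, 0.0015) and stood at 0.13 in EA3, with no call between lines (adjusted p = 0.116). Foxo3 passed in no line. Ddit3, a stress factor known to act on Bcl2l11, fell in EA1 (-2.18, SE 0.58) and EA3 (-1.72, SE 0.57), and Trp63 rose in EA1 (adjusted p = 0.0272) from 1 or 2 counts to 3 to 30 counts per library, too few with DMSO to give a size.

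Across the 12 log2 ratios by line and day, Bid and Bcl2 varied together most closely among the 10 genes (Pearson r = 0.85), followed by Bbc3 and Pmaip1 (r = 0.79). The ratios of a line share that line and those of a day share a day label but no library, so that these values are a description. Over all genes with a mean log2 CPM of at least 3, the ratios most like those of Bmf were S100Pbp (r = 0.94), Acox3 (0.87) and Sfxn3 (0.85). For Bcl2l1 they were Ier5 (0.90), Lrrc8A (0.88) and Stx6 (0.86), and for Bcl2l11 Mgat3 (0.91), Acvr1B (0.91) and St3Gal1 (0.91). For Bid they were Lasp1 (0.94), Gdpd5 (0.94) and Tmem18 (0.93), and for Bcl2 Casc4 (0.96), Rdh10 (0.96) and Nacc2 (0.94). Bbc3 was most like Lrrfip2 (0.94), Tsg101 (0.94) and Relb (0.93), and Pmaip1 most like Fhl2 (0.94), Creb5 (0.94) and Noct (0.93). Bax was most like Ppp1R11 (0.95), Chchd1 (0.90) and 4933434E20Rik (0.89), Bak1 most like Taf13 (0.87), Ube2Q1 (0.83) and Rangap1 (0.83), and Mcl1 most like Ap3D1 (0.92), Fubp3 (0.91) and Dusp3 (0.90).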

How the data were processed

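RNA was sequenced from EA1, EA2 and EA3 cells, with 1 library per line, treatment and day. Per the study's methods and the submitters' processing notes, read quality was checked with FastQC, adapters were trimmed with bbduk and reads were mapped to mm10 with STAR, versions not given in the sources used here. The authors deposited raw counts per gene symbol from STAR's internal counter, and the annotation release and strand setting are not given in the sources used here. A share of 0.129% to 0.201% of a library's counts lay on 24 of the 55415 lines that hold a date number in place of a symbol. They were left out. Totals of 5780062 to 11732401 counts limit the precision of low genes, with a floor of 3 counts that covers counting error alone.

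The main tool was edgeR 4.0.16 (R 4.3.3, limma 3.58.1), with Python 3.11.15 for sequences and plots. The robust quasi-likelihood test was run on 24 libraries with TMM factors, after filterByExpr on the groups of line and treatment, with 12 blocks of line and day and an alectinib effect per line. Further fits gave the test between lines with 2 degrees of freedom, slopes on log2 day, and the contrasts of the lines within the 12 libraries from DMSO. P-values were adjusted by Benjamini-Hochberg over 14264 genes, with a threshold of 0.05. The alternatives were DESeq2 1.42.0 (Wald tests, and a likelihood ratio test between lines), library size alone, no filter, size factors of DESeq2 put into edgeR, at least 10 counts in every library, no block, each line alone, all 26 libraries, time per day, and each day left out. The scripts were tested on simulated counts. Positions and exon lengths are those of GENCODE M21 on GRCm38, and correlations used log2 CPM with a prior count of 2. All genes of the member list were to be named, and of the other lists only genes past the threshold or needed as a check. The members and lists were chosen with earlier results of these data known. Protein sequences were not used here, and some items are not reported here.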

Additional observations from a re-analysis of the deposited data

Results flagged for a closer look

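Bcl2l11 in EA1 with alectinib stood at 47.3 CPM on day 3, above the other days at 43.8 to 44.2 CPM, a gap that is wide only beside the narrow range of that group. Bcl2l11 in EA3 with DMSO stood at 91.6 CPM on day 5, above 49.3 to 53.8 CPM on the other days. Bcl2l1 in EA3 with alectinib stood at 115 CPM on day 1, below 127 to 129 CPM on the other days. These 3 groups were found among 60 groups of 4 libraries examined for a library apart from the rest, and chance flags about 1 in 20 groups.

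The alectinib effect on Bcl2 differed between the lines by edgeR's quasi-likelihood test (adjusted p = 0.00217), at -0.53 in EA1, -2.26 in EA2 and -0.30 in EA3 on the log2 scale, with lower values on 4, 4 and 3 of the 4 days. The effect on Bid also differed (adjusted p = 0.00204), at 0.56, -0.46 and 0.88, with higher values on 4, 0 and 4 of the 4 days.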

How the results depend on the processing

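Of the comparisons of single members within a line, 138 of those called stayed called and 18 lost their call over 12 alternatives, and of those not called 183 stayed so, 13 passed and 8 changed sign. Between lines, Bid and Bcl2 kept their call in 22 of 22 alternatives. With each day left out, the members called ran from 3 (without day 2) to 5 in EA1, 3 to 4 in EA2, 3 to 5 in EA3, 2 to 2 between lines and 6 to 9 in DMSO. The effect slope gave 0 to 0 in EA1 and EA2 and 0 to 1 in EA3, and the DMSO slope 0 to 2 in EA1, 0 to 0 in EA2 and 0 to 2 in EA3. Without the filter, 4 members differed between lines, Bcl2l11 (adjusted p = 0.0102) and Pmaip1 (0.00138) joining, and the DMSO slope called 2 in EA1 and 3 in EA3. DESeq2 called 1 effect slope in EA1 and 1 in EA3, and 1 DMSO slope in EA1 and 2 in EA3, while time per day left 0 DMSO slopes in EA3. The signs that changed, with no call, were those of Bcl2l11 in EA2 without day 5 (-0.55 to 0.14 over the days left out), Bcl2l11 in EA3 with library size alone (0.072) and without day 3 or 5 (-0.22 to 0.053), Pmaip1 in EA2 without day 5 (-0.033 to 0.62), Bax in EA2 without day 3 (-0.16 to 0.13), and Mcl1 in EA1 with library size alone (0.051) and without day 3 (-0.20 to 0.064), all on the log2 scale. The cause was not tested. With library size alone, the median of all genes moved from 0.06 to 0.16 in EA1, from 0 to -0.04 in EA2 and from 0.07 to 0.18 in EA3. Without the replicate block, 4 members were called in EA1, 4 in EA2, 4 in EA3, 2 between lines and 7 in DMSO, and the calls lost were Bcl2l11 in EA1 and Bcl2l1 in DMSO. In the check of this pairing, the 2 libraries of a line and day departed from their groups with r between -0.300 and 0.549 across genes, so that the block rests on shared day labels. Counts over all genes moved by over 1.5 times between lines, from 976 to 1955 with DESeq2, 2698 without the filter, 400 with all 26 libraries, and 644, 215 and 321 without days 2, 3 and 5. Within a line they moved from 4791 to 2803 (EA1) and from 3475 to 2155 (EA2) without day 3, and from 4650 to 2835 (EA3) without day 2. Effect slopes over the alternatives numbered 0 to 246 in EA1 (3 as reported), 0 to 60 in EA2 (0) and 0 to 349 in EA3 (7), and DMSO slopes 0 to 824 (234), 0 to 25 (0) and 0 to 1706 (748). Depth limited the low genes, such as Fas, Trp63, Bik and Birc3 with under 1 CPM in some groups.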

Other observations

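The 2 libraries labelled EA3 day 7 were more like EA2 than EA3. Over log2 CPM of all genes, their Pearson correlation with libraries of the same treatment was 0.942 to 0.988 for EA2 and 0.852 to 0.889 for EA3. In these libraries Bcl2 stood at 53.0 CPM with DMSO and 13.5 CPM with alectinib, a log2 ratio of -1.98 that lies with the EA2 ratios of -2.80 to -1.80 and below the EA3 ratios of -0.80 to 0.38. Bcl2l1 stood at 137 and 36.6 CPM (-1.90), and Bcl2l11 at 50.1 and 13.4 CPM (-1.90). Bmf stood at 12.1 and 18.3 CPM (0.60), Bid at 29.9 and 29.2 CPM (-0.04) and Bak1 at 45.5 and 81.9 CPM (0.85). Bbc3 stood at 22.7 and 6.53 CPM (-1.80), Pmaip1 at 23.5 and 11.9 CPM (-0.97), Bax at 25.99 and 39.5 CPM (0.60) and Mcl1 at 199 and 289 CPM (0.54). There was 1 library per treatment on that day, so that these ratios have no replicate check. Besides Bcl2, the day 7 ratios of Bcl2l1 and Bak1 lay within the EA2 ratios of the earlier days. Those of the other genes lay outside them, some by little. Bcl2l11 was below its lowest EA2 ratio of -1.54, for example, and Bid above its highest of -0.18.

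In EA2 with alectinib, days 2 and 5 stood apart from days 1 and 3 in several of the genes, which was noticed after the values were seen. Bcl2l11 was at 21.4 and 14.6 CPM on days 2 and 5 and at 43.95 and 55.0 CPM on days 1 and 3. Bcl2 was at 8.66 and 12.1 CPM on days 2 and 5 against 20.3 and 19.4 CPM, and Bak1 was at 109 and 93.8 CPM against 54.1 and 49.0 CPM. The libraries of days 2 and 5 correlated at r = 0.965 over 14264 genes, within the range of 0.947 to 0.972 for all pairs of this group, and the cause was not tested.

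Bcl2l1, Bbc3 and Pmaip1 in EA1 with DMSO all stood higher on days 3 and 5 than on day 1, which was also noticed after the values were seen. From day 1 to day 3, Bcl2l1 went from 116 to 312 CPM, Bbc3 from 13.5 to 76.5 CPM and Pmaip1 from 4.60 to 25.3 CPM. With alectinib, the range over the days was 88.8 to 108 CPM for Bcl2l1, 17.0 to 20.8 CPM for Bbc3 and 9.80 to 11.1 CPM for Pmaip1. The DMSO slope of these 3 genes was not called in EA1 by edgeR's quasi-likelihood test as reported, but that of Bbc3 was called without the filter (adjusted p = 0.00852) and without day 3 (0.0318), and that of Pmaip1 without the filter (6.8e-05), without day 3 (0.00752) and by DESeq2 (0.0102).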
